A study of Mus musculus with 84 samples.

Results

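RNA was sequenced from the colon of germ-free mice that had all received bacteria from lean donors and that differed in their own diet. The HFDLFB group was fed a high-fat diet (60% fat) and the LFDLFB group a low-fat diet (10% fat). Members were taken from the group named in each sample title, which gave 3 libraries of HFDLFB and 3 of LFDLFB, 6 of the 12 RNA-seq libraries and of the 84 samples of the series. All recipients were C57BL/6 males that arrived at 5 weeks of age and were gavaged 4 times a week for 5 weeks with stool suspended from male donors kept on the low-fat diet (LFB). The remaining 6 RNA-seq libraries came from recipients of bacteria from obese donors (HFB) on the same diets, HFDHFB and LFDHFB, and entered the same fit. The question of the comparison was how colonic expression differed with the diet of the recipient when the transplanted bacteria were the same. Only the transplanted stool was held the same. The paper reports that diet strongly changed the bacteria that the recipients then carried, so diet and resident bacteria cannot be told apart here. The labels do not say that replicates were separate animals, so that p-values measure the spread between these libraries, which may be technical.

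The colonic epithelium is renewed from crypt stem cells and consists mainly of absorptive colonocytes and mucus-producing goblet cells. Goblet cells and neighbouring crypt cells release proteins that bind or kill bacteria, and several of these are known to be induced when germ-free mice are colonised. Dietary fat reaches the colon in small amounts, and fatty acids act on nuclear receptors of the PPAR family that switch on genes of fat uptake, storage and oxidation. The wall beneath the epithelium holds smooth muscle, nerves and vessels, the outer surface is covered by mesothelium, and fat tissue lies along the attachment of the mesentery.

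The RNA came from cells scraped from the colon, so that tissue below the epithelium could enter a sample. Libraries held between 39904191 and 48026846 reads assigned to genes. In bulk RNA, fewer cells of a type and less RNA per cell cannot be told apart. Values are CPM, reads scaled to a common library size with TMM factors, unless another unit is given, and 1 read was worth between 0.0217 and 0.0242 CPM in these 6 libraries. The epithelial markers were present in all 6 libraries, with a summed level of 13110 to 16660 CPM in HFDLFB and 17350 to 18190 CPM in LFDLFB. Libraries of HFDLFB stood apart from each other. Replicates 1 and 2 carried the most adipocyte and mesothelial RNA of the 6 libraries, and replicate 3 was the only one with appreciable RNA of the pancreatic genes Cpb1 and Cela2a, at 64.3 and 88.4 CPM against at most 1.05 and 1.54 CPM in the other 5.

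No gene passed an adjusted p of 0.05 between HFDLFB and LFDLFB by edgeR's quasi-likelihood test with Benjamini-Hochberg adjustment, 0 of 15893 genes tested or 0%. The smallest adjusted p was 0.882. At an unadjusted p under 0.05 there were 854 genes, 5.37% of those tested, of which 564 had higher levels in HFDLFB (3.55%) and 290 had lower levels (1.82%), and 9 genes had an unadjusted p under 0.001. The CPM of the groups did not overlap for 809 genes that were higher in HFDLFB (5.09%) and for 1052 that were lower (6.62%). DESeq2's Wald test on the same counts called 9 of 17213 genes at an adjusted p of 0.05 (0.0523%), 5 higher and 4 lower in HFDLFB, and 71 genes at an unadjusted p under 0.001. The median log2 fold change of all genes was 0.0040. Since edgeR called no gene, the genes below are described by their values, and a p without the word adjusted is an unadjusted p of edgeR.

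The genes with the smallest p among those lower in HFDLFB included secreted products of goblet and crypt cells that act on bacteria. Retnlb encodes RELMβ, a goblet cell protein with bactericidal activity that is known to depend on colonisation. It lies at chr16:48816969-48819005 of mm9. Its level was 65.0, 11.7 and 35.0 CPM in HFDLFB and 172, 357 and 222 CPM in LFDLFB. All libraries on the high-fat diet were therefore below all libraries on the low-fat diet, with a log2 fold change of -2.75 ± 0.56 (SE, n = 3 per group, edgeR adjusted p = 0.882). DESeq2 called the gene at an adjusted p of 0.0012.

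Itln1 encodes intelectin 1, a lectin that binds sugars of bacterial surfaces, and lies at chr1:173448255-173465425. It was at 1.97, 1.06 and 0.781 CPM in HFDLFB and at 3.97, 10.4 and 5.65 CPM in LFDLFB, again without overlap. The log2 fold change was -2.39 ± 0.50 (SE, n = 3 per group, edgeR adjusted p = 0.882), and the DESeq2 adjusted p was 0.0051. Reads of Itln1 can be shared with closely related intelectin copies, so its level is uncertain.

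Ang4, which encodes angiogenin 4, a bactericidal ribonuclease of crypt and goblet cells, was added to these after its values were seen. It lies at chr14:52383567-52393265 among similar angiogenin genes with which reads may be shared. Levels were 264, 67.3 and 74.7 CPM in HFDLFB and 443, 1041 and 532 CPM in LFDLFB. The groups did not overlap, and the log2 fold change was -2.31 ± 0.60 (SE, edgeR adjusted p = 0.882), with a DESeq2 adjusted p of 0.0519.

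The starts of these 3 genes are shown because all 3 had lower levels in each HFDLFB library than in any LFDLFB library. Each sequence runs from 250 bases before to 50 bases after the annotated start in mm9, read 5′ to 3′ on the strand of the gene, and capitals mark matches to 3 motifs of transcription factors that the study discusses.
Retnlb (chr16:48816719-48817018, plus strand): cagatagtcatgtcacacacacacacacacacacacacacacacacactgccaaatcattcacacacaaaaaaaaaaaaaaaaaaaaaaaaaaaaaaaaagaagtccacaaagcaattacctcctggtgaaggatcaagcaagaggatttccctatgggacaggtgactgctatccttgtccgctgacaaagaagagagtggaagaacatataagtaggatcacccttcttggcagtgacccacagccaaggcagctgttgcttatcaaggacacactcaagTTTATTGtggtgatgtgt
Itln1 (chr1:173465376-173465675, minus strand): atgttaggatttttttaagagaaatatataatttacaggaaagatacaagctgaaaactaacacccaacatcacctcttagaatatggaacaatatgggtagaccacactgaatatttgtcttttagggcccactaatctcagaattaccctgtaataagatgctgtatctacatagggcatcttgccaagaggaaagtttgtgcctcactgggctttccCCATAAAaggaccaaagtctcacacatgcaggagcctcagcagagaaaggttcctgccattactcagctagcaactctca
Ang4 (chr14:52393216-52393515, minus strand): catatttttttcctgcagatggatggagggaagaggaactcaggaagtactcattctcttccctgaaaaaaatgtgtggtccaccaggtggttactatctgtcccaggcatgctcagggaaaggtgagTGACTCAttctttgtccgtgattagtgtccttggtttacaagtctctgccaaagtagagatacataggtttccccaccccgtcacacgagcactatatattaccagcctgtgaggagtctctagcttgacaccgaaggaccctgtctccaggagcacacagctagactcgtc
The motifs searched on both strands were TGANTCA (AP-1), TTTATNG (CDX) and CAAAGNNCA (HNF4), with N for any base. Retnlb and Itln1 each held a CDX match, on opposite strands, at positions 32 and -30 from the start, and Ang4 held an AP-1 match at -122. Of the 15875 windows of tested genes that could be read, 5.37% held the AP-1, 7.67% the CDX and 5.2% the HNF4 letters. A match describes letters only. No H3K27ac peak overlapped any of these 3 windows in the 6 H3K27ac libraries of the same groups.

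Other genes of smallest p in this direction were of different classes. Pla2g4c, a phospholipase of the cytosolic A2 family that frees fatty acids from membranes, was at 0.738, 0.508 and 0.873 CPM in HFDLFB against 2.82, 2.82 and 2.47 CPM in LFDLFB, a log2 fold change of -1.93 ± 0.40. H1f0, the linker histone H1.0 that accumulates in differentiated cells, was at 194, 231 and 238 CPM against 436, 320 and 318 CPM, a log2 fold change of -0.70 ± 0.14. Junb, a subunit of the AP-1 factor, was at 84.2, 84.3 and 101 CPM against 147, 110 and 161 CPM, with a log2 fold change of -0.63 ± 0.16. On mm9 they lie at chr7:13911016-13946017, chr15:78858642-78860930 and chr8:87500808-87502647. In each of these 3 genes the groups did not overlap, and DESeq2 called Pla2g4c and H1f0 (adjusted p of 0.0051 and 0.0077) but not Junb (adjusted p of 0.161).

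Ephx2 was among the 5 genes of smallest p that were higher in HFDLFB. It encodes soluble epoxide hydrolase, which hydrolyses epoxides of fatty acids and is a known target of PPARα. Its CPM was 84.7, 84.7 and 86.7 in HFDLFB and 64.0, 48.5 and 60.8 in LFDLFB, a log2 fold change of 0.56 ± 0.12 (SE, n = 3 per group, edgeR adjusted p = 0.882). Esr1, the oestrogen receptor α, was at 6.38, 7.67 and 4.66 CPM against 3.15, 2.78 and 3.11 CPM, a log2 fold change of 1.05 ± 0.22, and was called by DESeq2 (adjusted p of 0.0069). They lie at chr14:66703209-66743359 and chr10:5340908-5734552. Neither gene overlapped between the groups.

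The remaining genes of this direction were at low levels. Pnoc, which encodes the precursor of the neuropeptide nociceptin, had the smallest p in the table (0.000321) with 28, 19 and 11 reads in HFDLFB and 0, 1 and 1 reads in LFDLFB. The ratio of the summed reads, scaled for library size, was 30.3 with a 95% exact counting interval of 8.03 to 256, which covers counting error only. Vwa3a was at 1.59, 2.32 and 0.574 CPM against 0.217, 0.131 and 0.389 CPM, a log2 fold change of 2.59 ± 0.58. The transcript E030003E18Rik was at 1.88, 3.17 and 1.03 CPM against 0.326, 0.437 and 0.458 CPM, a log2 fold change of 2.31 ± 0.50. For both, HFDLFB replicate 3 was the lowest of its group and above all LFDLFB libraries.

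DESeq2 also called 2 genes that were not among the 5 of smallest edgeR p in each direction, both higher in HFDLFB and both lowest in replicate 3. Sucnr1, the receptor for succinate, was at 3.38, 6.99 and 1.08 CPM against 0.434, 0.153 and 0.0686 CPM, with a DESeq2 adjusted p of 0.0077. Ifi27l2a, an interferon-inducible gene, was at 153, 282 and 36.1 CPM against 28.6, 24.4 and 20.5 CPM, with a DESeq2 adjusted p of 0.039. Their order over the HFDLFB libraries, highest in replicate 2 and lowest in replicate 3, was that of the summed adipocyte markers given below. Esr1, Vwa3a and E030003E18Rik had the same order. The part of adipocytes in the values of these genes was not tested. The DESeq2 calls depended on single libraries. There were 270 without HFDLFB replicate 3 and 52 without LFDLFB replicate 3, but 3 without LFDLFB replicate 2, 8 without HFDLFB replicate 1, 12 without HFDLFB replicate 2 and 8 without LFDLFB replicate 1. Of the 9 calls, Retnlb was kept in 5 of these 6 fits and H1f0 and Itln1 in 4 each.

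**Figure D1:**
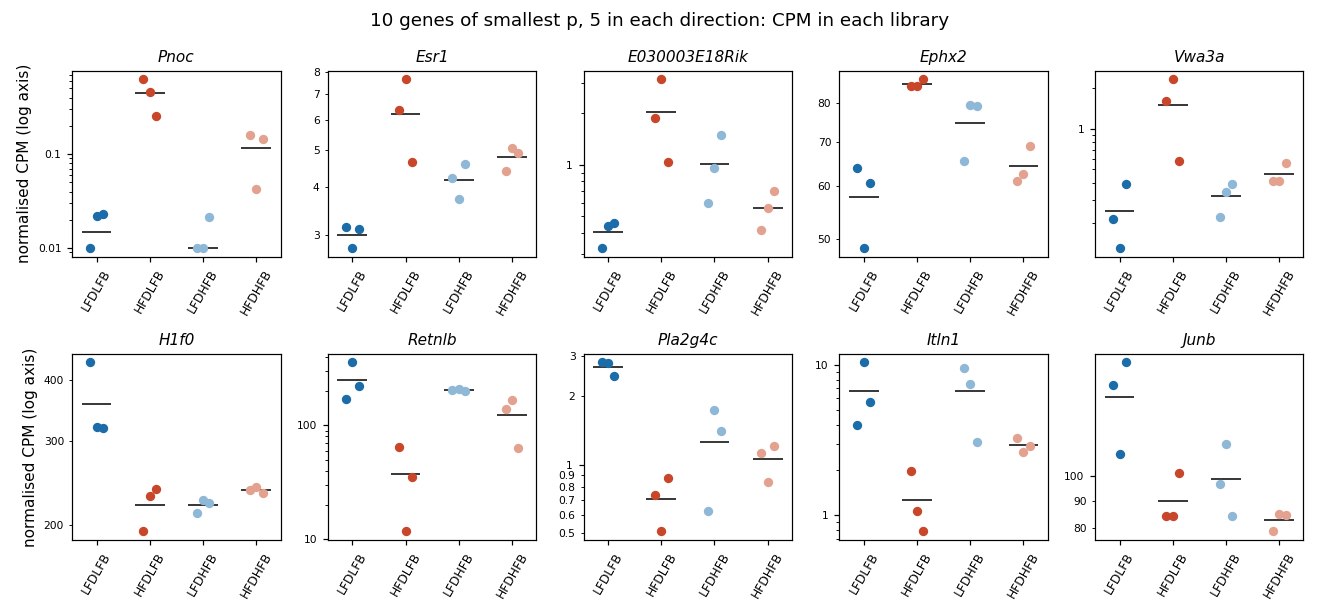
Normalised CPM on a log axis in each library of the 4 groups for the 5 genes of smallest p in each direction (upper row, higher in HFDLFB; lower row, lower in HFDLFB); points are libraries and lines are group means. Libraries without a read of Pnoc are drawn at 0.01 CPM. The dark red HFDLFB points lie wholly above or below the dark blue LFDLFB points in all 10 panels, which were chosen for this difference.

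Genes were then grouped into 19 lists of pathways, none of which held a gene called by edgeR. The list counts stand beside 5.37% of all genes with a p under 0.05, 3.55% higher and 1.82% lower. Of the genes for fat uptake, storage and transport, 10 of 28 had a p under 0.05 with higher levels in HFDLFB and 0 had lower levels, against 3.55% and 1.82% of all genes, and the median log2 fold change was 0.58. Angptl4, an inhibitor of lipoprotein lipase that responds to fatty acids, was at 16.6, 21.8 and 8.06 CPM in HFDLFB and at 2.52, 0.372 and 0.526 CPM in LFDLFB. Cd36, a carrier of long-chain fatty acids, was at 141, 330 and 43.8 CPM against 25.7, 17.6 and 18.1 CPM. Both were free of overlap, with log2 fold changes of 3.76 ± 0.997 and 3.07 ± 0.895 for Angptl4 and Cd36. Lipe, Fabp4, Cidec and G0s2, which are abundant in fat cells, had log2 fold changes of 2.18, 3.16, 2.66 and 2.07. Acsl1, which activates fatty acids, Dgat2, which completes triglycerides, and Apob, the scaffold of chylomicrons, had smaller ones of 0.90, 1.05 and 0.82. Apoa4 was counted with 35 reads in HFDLFB and 1 in LFDLFB, a ratio of 36.6 after scaling for library size, with a 95% exact counting interval of 6.15 to 1490. The members of highest level, Acsl3 and Fabp2, had log2 fold changes of -0.07 ± 0.16 and 0.08 ± 0.71.

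The adipocyte markers moved with this list, with which they share Fabp4 and Cidec. Their summed level was 1493, 3787 and 486 CPM in HFDLFB and 325, 312 and 186 CPM in LFDLFB. Of the 11 markers, 8 had a p under 0.05 and 7 did not overlap, all higher in HFDLFB, against 3.55% and 5.09% of all genes. The median log2 fold change was 3.25. The defining marker Adipoq was at 163, 426 and 47.9 CPM against 29.2, 13.1 and 5.54 CPM. None of the 11 was at 0 in all 6 libraries, and Fabp4 and Lpl were the most abundant with means of 600 ± 527 and 349 ± 359 CPM (SD) in HFDLFB. The part of fat tissue in the higher lipid genes was not tested. With only HFDLFB replicate 3 left in its group, 3 of the 28 lipid genes had a p under 0.05 and their median was 0.16, and 0 of the adipocyte markers did, with a median of 0.999. Without HFDLFB replicate 2 alone, 4 of the 28 and 1 of the adipocyte markers did, and without LFDLFB replicate 3, 4 and 2 did. The lone library was assumed to vary like the other groups.

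Genes for the oxidation of fatty acids and for ketone bodies showed little. Of 32 tested, 26 had higher estimates in HFDLFB, but 1 had a p under 0.05 in each direction and the median log2 fold change was 0.10. Those were Acaa1b, a peroxisomal thiolase at 15.6 ± 9.63 CPM in HFDLFB and 1.59 ± 1.34 CPM in LFDLFB, and Bdh1, a ketone body dehydrogenase at 133 ± 21.8 and 171 ± 4.18 CPM (SD). In fatty acid synthesis 0 of 21 genes had a p under 0.05, and the desaturases Scd2 and Scd1 had log2 fold changes of -0.57 ± 0.34 and 0.70 ± 1.03. Leaving out 1 library gave 0 to 3 higher and 0 to 1 lower genes in the oxidation list, and 3 lower genes in the synthesis list without HFDLFB replicate 2.

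Cholesterol synthesis and uptake leaned the other way, with 24 of 29 estimates lower in HFDLFB and a median of -0.23. The 5 genes with a p under 0.05 were all lower. They included Srebf2, which drives the pathway, at 181 ± 11.3 CPM in HFDLFB and 222 ± 28.3 CPM in LFDLFB, Fdft1, the squalene synthase, at 111 ± 12.9 and 149 ± 34.1 CPM, and Mvd and Tm7sf2 with log2 fold changes of -0.47 and -0.33. Of the 5, only Tm7sf2 had groups that did not overlap. Msmo1, among the most abundant members, was at -0.27 ± 0.23. Without LFDLFB replicate 3 none of the 29 had a p under 0.05 and without HFDLFB replicate 1 or LFDLFB replicate 2 there was 1. Without HFDLFB replicate 3 there were 2 lower genes and 1 higher one.

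Cell cycle genes had lower estimates in HFDLFB in 40 of 42 cases, with a median log2 fold change of -0.44. There were 7 with a p under 0.05, all lower in HFDLFB, against 1.82% of all genes. They were the replication genes Mcm2, Mcm3, Mcm7, Cdt1 and Tk1, the cyclin Ccnd1 and the microtubule regulator Stmn1. Mcm7, a subunit of the replicative helicase, was at 15.6, 21.4 and 18.8 CPM in HFDLFB against 22.0, 29.5 and 24.0 CPM in LFDLFB. Tk1, thymidine kinase, was at 4.74, 8.15 and 8.57 CPM against 11.1, 13.6 and 10.3 CPM. Neither gene overlapped between the groups. Pcna, the member of highest level, was at 59.1 ± 12.2 and 65.6 ± 2.66 CPM. HFDLFB replicate 1 had the lowest summed level of the list, 315 CPM against 635 and 641 CPM in its group and 608 to 782 CPM in LFDLFB. Without that library 0 of the 42 genes had a p under 0.05 and the median was -0.18. The count was 1 without LFDLFB replicate 2, 4 without LFDLFB replicate 1, 13 without HFDLFB replicate 2 and 15 without HFDLFB replicate 3.

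The list of crypt stem cell genes and Wnt targets had 4 of 21 genes with a p under 0.05. All 4 were lower in HFDLFB, against 1.82% of all genes, and the median of the list was -0.25. Myc was at 7.004, 11.7 and 10.96 CPM against 17.2, 20.8 and 12.8 CPM, and Sox9, a transcription factor of the crypt base, at 10.2, 14.8 and 17.6 CPM against 20.1, 27.2 and 22.6 CPM. Both were free of overlap, in contrast with Ephb2 and Cdca7 at -0.54 and -0.60. Prom1 and Slc12a2, the most abundant members, were at -0.02 ± 0.55 and -0.06 ± 0.32. As for the cell cycle list, 0 had a p under 0.05 without HFDLFB replicate 1, nor did any without LFDLFB replicate 2, and there were 1 and 2 without LFDLFB replicate 1 and HFDLFB replicate 2. There were 5 without HFDLFB replicate 3 and 4 without LFDLFB replicate 3.

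Immediate early genes, which are switched on within minutes of a stimulus, included handling of tissue, had the most members separated downwards in proportion to their number among the lists of at least 20 genes. Of 30 tested, 7 were lower in HFDLFB without overlap and 0 were higher, against 6.62% and 5.09% of all genes, and 7 had a p under 0.05 with lower levels. Fos was at 87.0, 77.2 and 73.4 CPM in HFDLFB and at 118, 124 and 163 CPM in LFDLFB, a log2 fold change of -0.77 ± 0.22. Ier2 was at 35.4, 38.4 and 54.6 CPM against 61.2, 62.9 and 62.8 CPM. Jund was at 250, 198 and 228 CPM against 314, 275 and 354 CPM, and Zfp36, which destabilises cytokine mRNA, at 102, 81.4 and 98.8 CPM against 135, 108 and 142 CPM. Fosb and Jun had log2 fold changes of -1.72 and -0.44. In contrast, Klf4 and Fosl2, the members of highest level, were at -0.22 ± 0.26 and -0.13 ± 0.20. Leaving out any HFDLFB or LFDLFB library left 4 to 10 of the 30 with a p under 0.05 and lower levels and 0 with higher ones, and the fit with HFDLFB replicate 3 alone had 3 with lower levels.

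**Figure D2:**
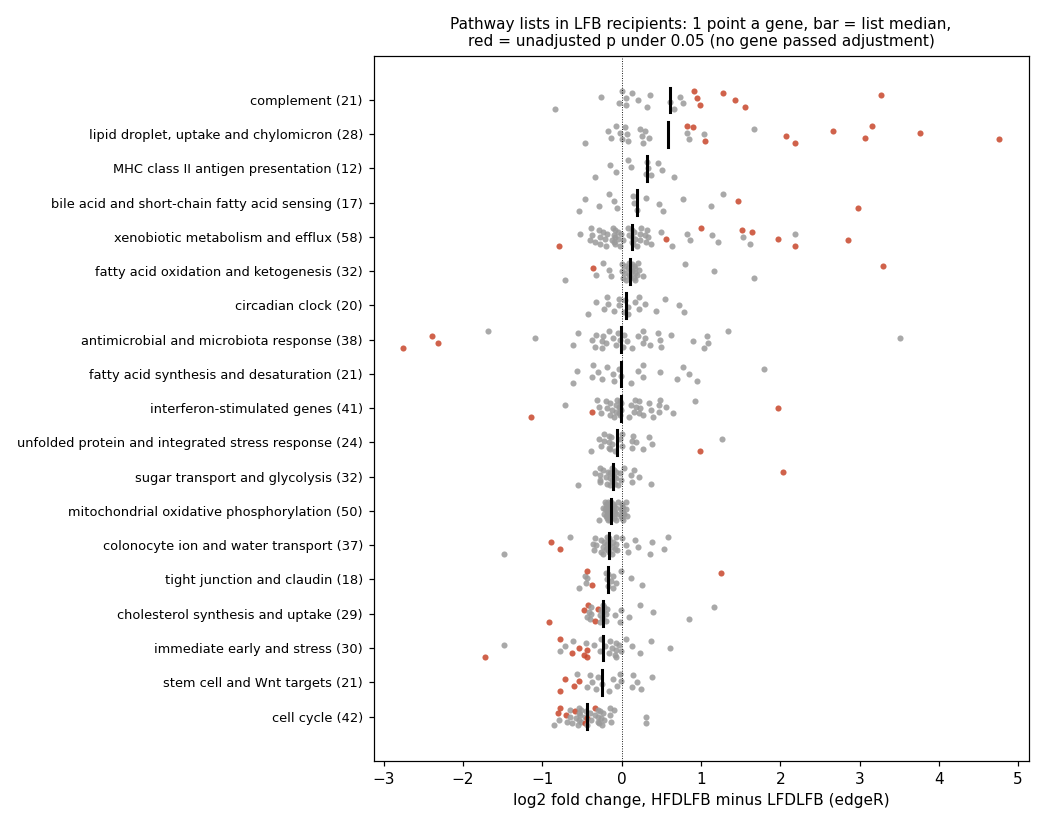
Log2 fold change of HFDLFB minus LFDLFB (edgeR) for each tested gene of the 19 pathway lists, with the number of genes tested in brackets and a black bar at the list median; red points have an unadjusted p under 0.05. Complement and lipid genes have the highest medians, 0.61 and 0.58, and cell cycle genes the lowest, -0.44.

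Among 58 genes of xenobiotic metabolism, 7 had a p under 0.05 with higher levels in HFDLFB and 1 with lower levels. Of all genes, 3.55% and 1.82% did. Besides Ephx2, the carboxylesterase Ces1d was at 114, 132 and 117 CPM against 43.9, 38.2 and 33.9 CPM, a log2 fold change of 1.64 ± 0.60. Fmo2, a flavin monooxygenase, was at 284, 218 and 73.0 CPM against 44.5, 43.5 and 113 CPM, so that replicate 3 of HFDLFB fell within the range of LFDLFB. Cyp1b1, Cyp4b1, Ces1g and Fmo1 had log2 fold changes of 1.97, 2.85, 2.19 and 1.004, and Gstm3, a glutathione transferase, -0.78. The most abundant members, Adh1 and Cyp2c55, had p of 0.487 and 0.8. The list had 4 higher and 3 lower genes without LFDLFB replicate 3, 7 and 4 without HFDLFB replicate 3, 5 and 0 without HFDLFB replicate 1 or LFDLFB replicate 1, 8 and 0 without HFDLFB replicate 2, and 7 and 0 without LFDLFB replicate 2. With HFDLFB replicate 3 alone it had 1 and 0. The adipocyte and mesothelial sums were highest in HFDLFB replicates 1 and 2, and their part in these values was not tested.

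In the complement list 7 of 21 genes had a p under 0.05 with higher levels in HFDLFB and 0 with lower levels. Of all genes, 3.55% and 1.82% did. The median of the list was 0.61, but 0 of its genes were separated upwards between the groups. C3, the central component, was at 1381, 2704 and 493 CPM in HFDLFB and at 254, 267 and 1041 CPM in LFDLFB. Cfb was at 265 ± 76.8 and 213 ± 83.0 CPM (SD). The same libraries were high in the mesothelial markers, whose sum was 433, 535 and 104 CPM in HFDLFB and 61.5, 75.0 and 223 CPM in LFDLFB, with 7 of 8 tested markers at a p under 0.05 and 0 free of overlap. Upk3b and Msln, the most abundant, had means of 121 ± 76.0 and 66.9 ± 48.5 CPM in HFDLFB. The part of mesothelium in the complement values was not tested. The complement count was 2 without HFDLFB replicate 1, 0 without HFDLFB replicate 2, and 1 without either LFDLFB replicate 1 or LFDLFB replicate 2, and the mesothelial count in the same fits was 2, 0, 0 and 0. Without HFDLFB replicate 3 the counts were 8 and 8, and without LFDLFB replicate 3 they were 9 and 8. With HFDLFB replicate 3 alone the complement median was -0.29 and the mesothelial median -0.22.

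The list of antimicrobial and microbiota-responsive genes, which holds Retnlb, Itln1 and Ang4, had these 3 as its only members with a p under 0.05. Of 38 tested, 7 were lower in HFDLFB without overlap and 1 was higher, against 6.62% and 5.09% of all genes, and the median was 0.00. Its most abundant members were Lypd8, which keeps flagellated bacteria from the epithelium, at 19385 ± 584 and 20975 ± 4492 CPM, and the acute phase gene Saa1 at 6517 ± 1732 and 5631 ± 1691 CPM. Each fit that left out 1 library of HFDLFB or LFDLFB had at least 3 members with a p under 0.05 and lower levels. The part of admixed tissue in the values of Retnlb, Itln1 and Ang4 was not tested.

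Mitochondrial oxidative phosphorylation was near the background by p, with 0 of 50 genes under 0.05, while 40 estimates were lower in HFDLFB and 8 genes were separated downwards (against 6.62% of all genes), with a median of -0.14. Atp5b and Atp5a1 were at -0.14 ± 0.13 and -0.17 ± 0.13. Transport of ions and water had 2 of 37 genes with a p under 0.05, close to the 5.37% of all genes. They were the water channel Aqp4 at -0.77 and the potassium channel Kcnn4 at -0.90, while Clca1 had a p of 0.0868. Tight junction genes had 3 of 18. Cldn7 was at 681, 580 and 748 CPM against 784, 883 and 930 CPM and Cldn3 at 441 ± 87.8 and 595 ± 36.8 CPM (SD), both without overlap, and Cldn1 had a log2 fold change of 1.25. The tight junction count was 0 without HFDLFB replicate 2 or LFDLFB replicate 2, 1 without LFDLFB replicate 3 and between 2 and 4 without each of the other libraries. The transport count was 0 without HFDLFB replicate 1 or LFDLFB replicate 2, 1 without LFDLFB replicate 1 and 3 without HFDLFB replicate 3. For oxidative phosphorylation it was 2, both lower, without HFDLFB replicate 3 or LFDLFB replicate 3.

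The counts with all libraries in the following lists stand against 5.37% of all genes. Sugar transport and glycolysis had 1 gene of 32 with a p under 0.05, Pfkfb3, an activator of glycolysis, at 44.6 ± 32.2 and 10.9 ± 0.685 CPM. Ldha and Txnip were at -0.14 ± 0.20 and -0.04 ± 0.16. Bile acid and short-chain fatty acid sensing had 2 of 17, the lactate receptor Hcar1 and the bile acid exporter subunit Slc51a, which was at 159, 18.5 and 79.2 CPM against 12.05, 19.4 and 1.03 CPM, with overlap. Vdr and Slc16a1 were at -0.16 ± 0.19 and -0.09 ± 0.29. Interferon-stimulated genes had 3 of 41, with Cxcl9 at 1.97 and Mx1 and Irf8 at -1.14 and -0.37, and Irf1 and Irf7 at -0.10 ± 0.17 and -0.07 ± 0.20. The unfolded protein response had 1 of 24, the serine synthesis gene Psat1 at 0.98, with Pdia3 and Calr at -0.03 ± 0.20 and -0.16 ± 0.21. Antigen presentation by MHC class II had 0 of 12 by edgeR, with Ctss and Cd74 at -0.07 ± 0.21 and 0.32 ± 0.39, and the circadian clock had 0 of 20, with Bhlhe40 and Tef at -0.22 ± 0.19 and 0.04 ± 0.14. Interferon-stimulated genes had 7 higher and 1 lower without HFDLFB replicate 3, 4 and 0 without LFDLFB replicate 1, 3 and 2 without LFDLFB replicate 3, and 0 and 0 with HFDLFB replicate 3 alone. The bile acid and short-chain fatty acid list had 0 without HFDLFB replicate 1 or any 1 library of LFDLFB, and 1 without HFDLFB replicate 2. Without HFDLFB replicate 3 there were 4 genes of the unfolded protein response, 3 of the clock and 1 of MHC class II.

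Goblet cell markers had 6 of 13 tested genes with a p under 0.05, all lower in HFDLFB, against 1.82% of all genes. Their median log2 fold change was -0.49. Their summed level was 18220, 16600 and 20530 CPM in HFDLFB and 20710, 31590 and 25010 CPM in LFDLFB. Besides Retnlb and Ang4, the 6 were the mucin Muc2 at 662 ± 165 and 1509 ± 1090 CPM (SD), the goblet cell transcription factor Atoh1 at 38.2 ± 8.21 and 50.7 ± 5.605 CPM, and Spink4 and Fcgbp at -0.58 and -0.70. Muc2, Atoh1 and Fcgbp overlapped between the groups. The most abundant markers, Zg16 and Clca1, were at -0.22 ± 0.21 and -0.65 ± 0.35. The count was 2 without HFDLFB replicate 1 and 2 without LFDLFB replicate 2, which had the highest sum, and 3 without HFDLFB replicate 2. Markers of deep crypt secretory cells were also low in estimate, with Mptx1 at 1893 ± 477 and 4023 ± 187 CPM (SD) without overlap, while Ccl6 was at a log2 fold change of 0.15 ± 0.20, and the only 1 of 6 with a p under 0.05 was Spink4, which the goblet cell list also holds.

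Epithelial markers had lower estimates in HFDLFB in all 12 cases, with a median of -0.23, and 1 of the 12, Cldn7, had a p under 0.05. In 3 of the 12 HFDLFB was lower without overlap and in 0 higher, against 6.62% and 5.09% of all genes. Krt8 was at 4226 ± 674 and 5115 ± 95.7 CPM and Krt19 at 2542 ± 315 and 3171 ± 175 CPM. Absorptive colonocyte and tuft cell markers had 0 of 12 and 0 of 11 with a p under 0.05, with the colonocyte carbonic anhydrase Car1 at 0.38 ± 0.50 beside Saa1 and the tuft cell marker Dclk1 at 0.03 ± 0.37. Of 16 enteroendocrine markers, Gcg, the precursor of glucagon-like peptides, was the only one with a p under 0.05, against 5.37% of all genes. Gcg was at 18.5 ± 4.34 and 34.9 ± 18.1 CPM (SD), and Chgb and Chga were at 0.42 ± 0.54 and 0.34 ± 0.50.

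In the wall and blood lists, 1 of 10 fibroblast markers, Dcn (1.20 ± 0.45), had a p under 0.05. The same held for 1 of 14 leukocyte markers, Ptprc (0.48 ± 0.18), against 5.37% of all genes. Without HFDLFB replicate 3 there were 3 and 4. Smooth muscle, endothelium, B and plasma cells, enteric neurons and glia, and red cells had 0. Their most abundant markers had log2 fold changes of -0.21 and -0.22 for Tagln and Acta2, 0.19 and 0.01 for Lyve1 and Pecam1, -0.60 and 0.23 for Jchain and Cd79b, -0.01 for both Vip and Uchl1, and 0.48 and 0.54 for Alas2 and Slc4a1. Col3a1, Lyz2 and Coro1a were at 0.20, 0.21 and 0.50. Of 12 pancreatic genes 3 passed the filter on low counts, of which Cpb1 and Cela2a rest on HFDLFB replicate 3 and Cela1 was at -0.18 ± 0.62. Genes that mark position along the colon summed to 648, 882 and 1157 CPM in HFDLFB and to 1276, 847 and 1328 CPM in LFDLFB, and Hoxb13 was at -0.34 ± 0.84. Of 13 tested, 0 had a p under 0.05 and the median was -0.39. In 4 of them HFDLFB was lower without overlap and in 0 higher, against 6.62% and 5.09% of all genes. HFDLFB replicate 1 was the lowest of the 6 in this sum. How far the stretch of colon sampled enters the values was not tested.

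**Figure D3:**
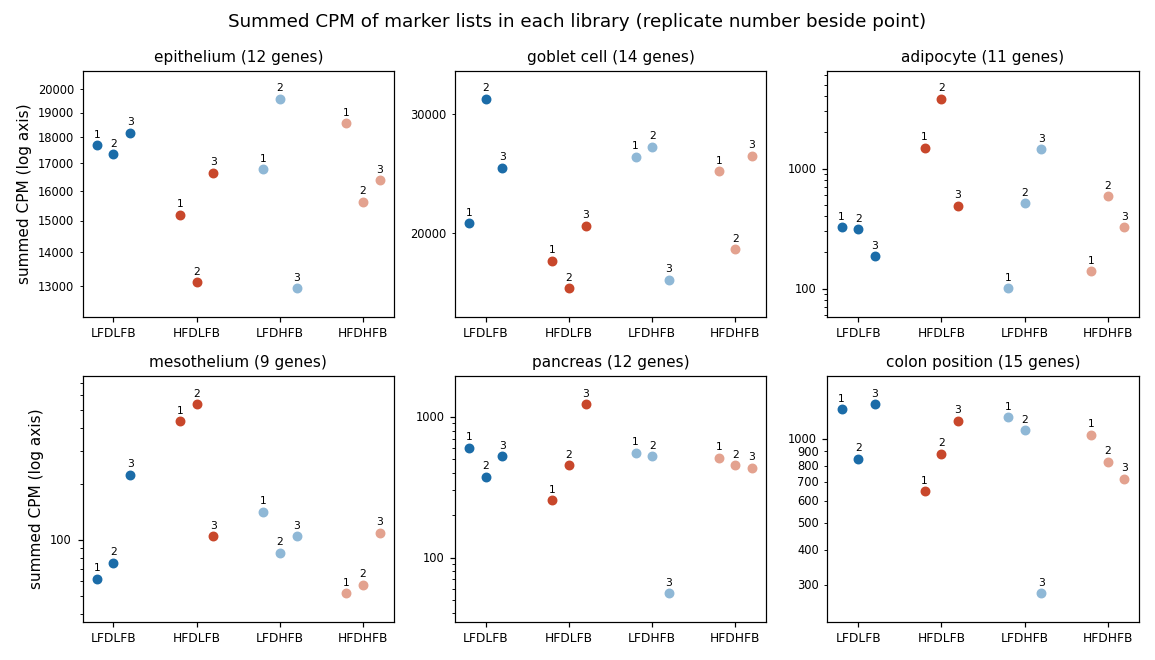
Summed CPM on a log axis of 6 marker lists in each of the 12 RNA-seq libraries, by group, with the replicate number beside each point. Adipocyte and mesothelial markers are highest in HFDLFB replicates 1 and 2, at 1493 and 3787 CPM and at 433 and 535 CPM, and pancreatic genes in HFDLFB replicate 3.

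H3K27ac, a histone mark of active promoters and enhancers, was mapped in the same groups in epithelial cells that had been shaken off the colon with EDTA. Peaks numbered 46138 to 49147 in the 3 libraries of HFDLFB and 39684 to 45797 in the 3 of LFDLFB, with no height given. Because edgeR called no gene, genes were taken at an unadjusted p under 0.05, a choice made after the RNA values were seen. Around all tested genes, peaks covered 21.0% to 22.2% of the 10 kb on each side of the start in HFDLFB and 17.6% to 20.9% in LFDLFB. Around the 564 genes with higher RNA in HFDLFB they covered 10.7% to 11.8% and 8.37% to 10.6%, and around the 290 with lower RNA 28.5% to 31.0% and 25.3% to 29.3%. Genes with higher RNA therefore had less cover than all genes in each of the 6 libraries, on either diet. No peak lay in the window in any library for 28% of the former and 4.14% of the latter, against 14% of all genes. The sets also differed in level, with a median of 8.89 CPM for the genes with higher RNA, 29.5 CPM for those with lower RNA and 16 CPM for all.

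The cover of these genes in excess of all genes was then compared between diets. For genes with higher RNA in HFDLFB it was -10.4 ± 0.16 percentage points in HFDLFB and -9.84 ± 0.52 in LFDLFB (SD, n = 3 each), a difference of -0.599 with a two-sided exact permutation p of 0.1, the smallest that 3 against 3 libraries allow. This negative sign is not a loss of cover. Their own cover was higher in HFDLFB (10.7% to 11.8%) than in LFDLFB (8.37% to 10.6%). Cover of all genes, which is subtracted in percentage points, was also higher in HFDLFB. With 1 kb windows the difference was 0.703. For genes with lower RNA it was 8.08 ± 0.76 and 8.15 ± 0.40, a difference of -0.0641 with an exact p of 1. At named genes the windows of Adipoq, Fabp4, Cd36 and Cfd held no peak in any of the 6 libraries, nor did those of Pnoc, Itln1 and Ang4. A peak overlapped the 300 bases at the start in all 6 libraries for Ephx2, Esr1, Ces1d, H1f0, Junb, Fos, Ier2, Jund, Zfp36, Tk1, Mcm7, Myc and Sox9. Angptl4 had such a peak in 3 libraries of HFDLFB and 2 of LFDLFB.

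**Figure D4:**
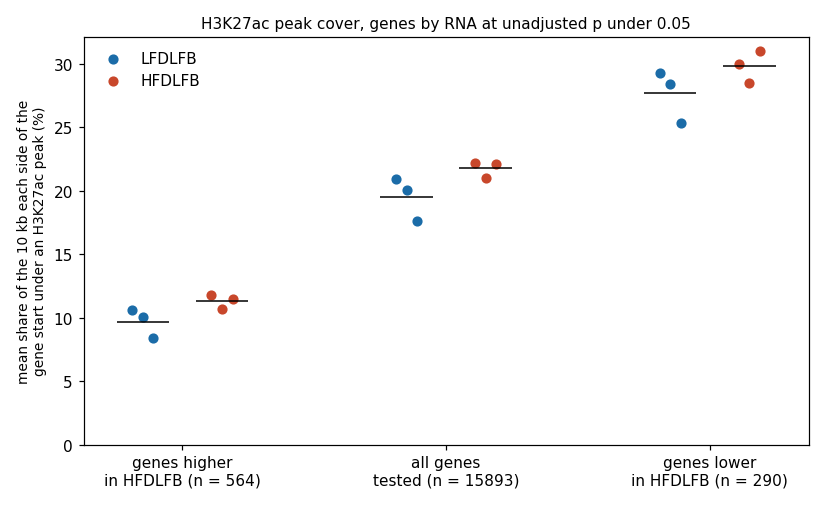
Mean share in percent of the 10 kb on each side of gene starts that lies under an H3K27ac peak, for genes with higher RNA in HFDLFB, all tested genes and genes with lower RNA, with 1 point per H3K27ac library and lines at group means. Cover is about 10% for the genes with higher RNA in HFDLFB, about 20% for all and about 30% for the genes with lower RNA, on either diet.

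In recipients of bacteria from obese donors the same diets gave other values. That comparison shares no library with the first, but the same scaling and filter. LFDHFB replicate 3 stood apart from its group. It correlated across genes at 0.929 and 0.941 with LFDHFB replicates 1 and 2, which correlated with each other at 0.986. Its colon position genes summed to 279 CPM, against 1195 and 1072 CPM in replicates 1 and 2. The part of this library in the fold changes below was not tested. Of the 854 genes with a p under 0.05 in LFB recipients, 180 (21.1%) had the same direction in HFB recipients, against 38.8% of all genes. Among the 10 genes that had the 5 smallest p in each direction, 7 had the same direction. Ephx2, E030003E18Rik and H1f0 did not, with log2 fold changes of -0.21 ± 0.12, -0.86 ± 0.48 and 0.11 ± 0.14 in HFB recipients. Pnoc and Vwa3a were higher on the high-fat diet without overlap in both kinds of recipient, at 3.54 ± 1.07 and 0.53 ± 0.56 in HFB recipients. Itln1 was at 3.27, 2.65 and 2.91 CPM in HFDHFB and at 9.54, 7.48 and 3.07 CPM in LFDHFB, a log2 fold change of -1.19 ± 0.48. Retnlb was at 139, 168 and 63.4 CPM against 206, 208 and 200 CPM, a log2 fold change of -0.73. Levels of Retnlb were thus lower on the high-fat diet without overlap in both kinds of recipient. Zfp36 was also lower without overlap, with log2 fold changes of -0.44 and -0.49.

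For other genes the direction differed. Cd36 had a log2 fold change of 3.07 in LFB and -1.62 in HFB recipients, and Fmo2 1.52 and -1.10. Angptl4 was at 3.76 in LFB and at 0.0086 in HFB recipients. The adipocyte markers summed to 139, 589 and 324 CPM in HFDHFB and to 101, 514 and 1442 CPM in LFDHFB, so that the highest library was on the low-fat diet there, and the part of fat tissue in these differences was not tested. Genes of oxidative phosphorylation had a median of -0.14 in LFB and of 0.34 in HFB recipients. Medians also differed in sign for cell cycle (-0.44 and 0.24), goblet cell (-0.49 and 0.15) and immediate early genes (-0.235 and 0.128). The same held for lipid (0.58 and -0.19) and complement genes (0.61 and -0.29). Cholesterol genes (-0.23 and -0.04) and fatty acid oxidation genes (0.105 and 0.067) kept their sign. The difference of the diet effects itself passed an adjusted p of 0.05 for 0 of 15893 genes by edgeR, with 1799 genes at an unadjusted p under 0.05 (11.3%) and 35 called by DESeq2. By list, 30 of 50 oxidative phosphorylation genes, 8 of 11 adipocyte markers, 8 of 8 mesothelial markers, 6 of 13 goblet cell markers and 11 of 42 cell cycle genes were among the 1799.

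**Figure D5:**
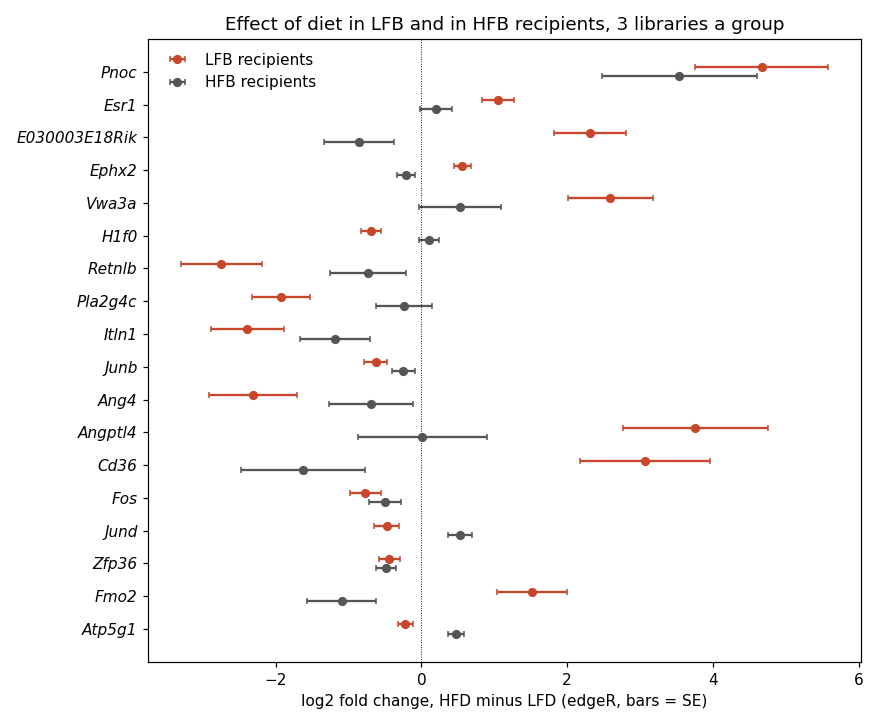
Log2 fold change of high-fat minus low-fat diet in LFB recipients (red) and HFB recipients (grey), with bars of 1 SE from edgeR and 3 libraries a group, for the 5 genes of smallest p in each direction in LFB recipients and 8 genes added after their values were seen. Retnlb, Itln1, Ang4, Fos and Zfp36 lie below 0 in both, while Cd36, Fmo2, Jund and Atp5g1 lie on opposite sides of 0.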

How the data were processed

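RNA-seq of 12 libraries was used, 3 in each of 4 groups. Per the submitters' processing notes and the methods, the authors aligned reads to mm9 with STAR 2.5, assigned them to genes with featureCounts 1.5.0-p1 and deposited raw counts for 25494 rows, 1026 of them further loci of a repeated symbol. The strand setting is not given in the sources used here, so overlapping genes cannot be told apart. H3K27ac peaks were called by the authors with SICER in each library and deposited as intervals, without score or depth.

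Counts were scaled by TMM, filtered by filterByExpr and tested in edgeR 4.0.16 (R 4.3.3) in 1 quasi-likelihood fit of 4 groups, with Benjamini-Hochberg adjustment over 15893 genes. The fit was tested on simulated counts. DESeq2 1.42.0 and limma 3.58.1 served as alternatives. No comparison across genes beyond this fit was tested. Named genes were the 5 of smallest p in each direction, and in each list the 2 of highest mean CPM; Ang4 and all others were added after their values were seen. Some genes that this rule names are not reported here. Members, the 19 pathway and 17 marker lists and the tests were chosen with earlier results of these data known. Peak cover was compared by two-sided exact permutation over libraries. Promoter windows were read from the mm9 genome sequence. Libraries of a group differed by far more than sampling noise, so that none was counted as a duplicate. Peak lists of other groups and marks were not used here.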

Additional observations from a re-analysis of the deposited data

Results flagged for a closer look

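In 7 of the 44 genes followed through the refits, the diet groups did not overlap in either kind of recipient and differed in opposite directions. They were lower on the high-fat diet with LFB and higher with HFB bacteria. The difference of the diet effects, LFB minus HFB, was -0.80 for H1f0, -1.01 for Jund and -0.70 for Atp5g1 on the log2 scale. It was -1.59 for Zfp771, -0.92 for Snhg8, -0.85 for Mrps12 and -0.76 for Dad1, which are among the 5 genes of smallest p for this difference. None passed adjustment in edgeR's test of the difference, with an adjusted p of 0.383 for each. Of all 15893 genes, 223 (1.4%) were separated in opposite directions and 31 (0.195%) in the same direction. Zfp771, Snhg8, Mrps12 and Dad1 were chosen for this difference, and Jund and Atp5g1 were added after their values were seen. The count of 7 therefore cannot be set against the share of all genes.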

How the results depend on the processing

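In edgeR, 0 genes passed an adjusted p of 0.05 between HFDLFB and LFDLFB with DESeq2 size factors, with upper-quartile factors, with no filter or a filter of 1 CPM, with only the 6 libraries, and without any single library of these groups; limma-voom also called 0, with 1764 genes at an unadjusted p under 0.05. With HFDLFB replicate 3 alone in its group there were 12 calls, all higher and including the pancreatic genes Cpb1 (log2 fold change 9.15) and Cela2a (8.63), and 306 genes at an unadjusted p under 0.05. Averaging the diet effect over both kinds of recipient gave 0 calls and 471 genes at an unadjusted p under 0.05. At an unadjusted p under 0.001 there were 9 genes in LFB recipients, 47 in HFB recipients and 24 for the difference, and DESeq2 gave 71 in LFB recipients. DESeq2 called 9, 116 and 35 genes at an adjusted p of 0.05, and for LFB recipients between 3 and 270 when 1 library was left out: 8, 12 and 270 without HFDLFB replicate 1, 2 and 3, and 8, 3 and 52 without LFDLFB replicate 1, 2 and 3. In HFB recipients edgeR called between 0 and 6 genes when 1 library was left out, 6 without HFDHFB replicate 1. Genes at an unadjusted p under 0.05 in LFB recipients numbered 454 to 1499 over the same fits, 454 without LFDLFB replicate 2, 458 without HFDLFB replicate 2 and 1499 without HFDLFB replicate 3. With replicate number as a replicate block, edgeR called 0 genes and 590 had an unadjusted p under 0.05, while same-numbered libraries of the 2 groups correlated in their deviations from the group means at -0.332, -0.131 and 0.143, so that the numbers were not taken to pair the samples. Of 44 genes followed, 8 changed sign when the diet effect was averaged over recipients. Mrps12 (0.15), Jund (0.0263) and Stmn1 (0.0593) had an unadjusted p under 0.05 in LFB recipients, while Rnaseh2c (0.34), Zfp771 (0.33), Snhg8 (0.27), Dad1 (0.14) and Atp5g1 (0.13) did not. C3 (-0.0775) changed sign with HFDLFB replicate 3 alone. The 12 genes named by smallest p or by DESeq2 kept their direction throughout the refits, in all 190 values counted per gene and refit. With windows of 1 kb the difference in H3K27ac cover at genes with higher RNA was 0.703, against -0.599 at 10 kb. The averaged effect, the DESeq2 fits without a library, the fit without 2 libraries and the H3K27ac gene sets were added after the data were seen, and the cause of these changes was not tested. Peak lists carry no depth, which limits what their cover can show.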
